A study of Mus musculus with 2 samples.

Results

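The mineralocorticoid receptor, the epithelial sodium channel ENaC and the sodium pump were followed through 9 genes in kidney RNA of Iah1-KO and Iah1-WT mice. The members were Nr3c2, Scnn1a, Scnn1b, Scnn1g, Nedd4l, Wnk1, Atp1b1, Fxyd2 and Fxyd4, and each was read from its brightest probe set that carries a single platform gene symbol. All 9 were found among the 22180 genes with such a probe set, and all 9 were among the 7671 genes at or above an expression floor of log2 6 in the brighter array. The choice did not use measured values, but it was made with earlier results of these arrays known.

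The Iah1-KO group was 1 array with pooled kidney RNA of 3 male mice with a systemic knockout of Iah1, an esterase-like gene, and the Iah1-WT group was 1 array with pooled RNA of 3 male mice without it. Both groups ate chow up to 6 weeks of age and then a high-fat diet for 12 weeks, lived singly, and went 4 hours without food before they were killed. The sources used here give neither the strain nor the deleted part of Iah1. With 1 pool per genotype there is no replicate check, no test between genotypes and no error between mice, so every difference below is between 2 pools. The Iah1 probe set read 3.60 in the Iah1-KO pool and 9.09 in the Iah1-WT pool, on the log2 scale of the deposited values.

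Aldosterone binds the mineralocorticoid receptor in the late distal tubule and collecting duct, and the receptor then switches on genes that raise sodium reabsorption. Sodium enters principal cells from the urine through ENaC, a channel built of alpha, beta and gamma subunits, and leaves towards the blood through the sodium pump, whose alpha and beta subunits are joined by small FXYD proteins. The ubiquitin ligase Nedd4l removes ENaC from the membrane, the kinase Sgk1 restrains Nedd4l, and WNK kinases set the balance between the upstream sodium chloride cotransporter and ENaC.

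Promoter sequences are shown for the receptor, which had the largest difference of the 9 members, and for the beta and gamma channel subunits, which lie next to each other on chromosome 7 and differed in opposite directions. A stretch upstream of Sgk1 is added because it holds the response element shared by mineralocorticoid and glucocorticoid receptors. All are RefSeq sequences of build GRCm38.p6, written 5′ to 3′ on the strand of the gene. The promoters run from 250 bases before to 50 bases after an annotated start: Nr3c2 at chr8:76902080-76902379 (plus strand), Scnn1g at chr7:121734229-121734528 (plus strand), Scnn1b at chr7:121864788-121865087 (plus strand). Capitals in these mark GGGCGG or its reverse complement CCGCCC, the GC box. In the Sgk1 stretch, chr10:21993681-21993735 (plus strand), capitals mark the palindrome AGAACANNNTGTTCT.
Nr3c2: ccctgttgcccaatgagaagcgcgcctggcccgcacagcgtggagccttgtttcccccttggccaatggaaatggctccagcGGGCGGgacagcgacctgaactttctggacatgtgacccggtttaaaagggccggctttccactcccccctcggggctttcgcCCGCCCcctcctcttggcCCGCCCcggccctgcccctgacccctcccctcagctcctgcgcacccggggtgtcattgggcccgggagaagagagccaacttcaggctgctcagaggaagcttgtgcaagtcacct
Scnn1g: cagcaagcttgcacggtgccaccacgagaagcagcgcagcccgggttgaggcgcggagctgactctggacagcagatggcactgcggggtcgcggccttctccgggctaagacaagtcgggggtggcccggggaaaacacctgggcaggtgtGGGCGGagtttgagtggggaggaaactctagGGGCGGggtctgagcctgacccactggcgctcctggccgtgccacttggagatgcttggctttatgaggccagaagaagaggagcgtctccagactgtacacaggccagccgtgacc
Scnn1b: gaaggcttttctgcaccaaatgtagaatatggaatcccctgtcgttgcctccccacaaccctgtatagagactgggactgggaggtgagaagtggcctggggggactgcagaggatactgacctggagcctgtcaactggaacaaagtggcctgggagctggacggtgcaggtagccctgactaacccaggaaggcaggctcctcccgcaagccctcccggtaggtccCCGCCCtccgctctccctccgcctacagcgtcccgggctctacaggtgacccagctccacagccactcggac
Sgk1: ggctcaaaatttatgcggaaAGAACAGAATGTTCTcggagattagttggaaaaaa

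Windows of 300 bases were matched for 6 of the 9 members, while Scnn1a, Nedd4l and Fxyd2 are named only. The palindrome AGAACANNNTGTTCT reads the same on both strands, and it was found in 0 of the 6 member windows and in 3 of all 32851 windows (0.00913%). One of these 3 is the Sgk1 stretch shown, from 1 of the 6 Sgk1 windows. Its half-site AGAACA, searched on both strands and contained in the palindrome, was in 0 of the 6 member windows and in 19.0% of all windows. The GC box, searched on both strands, was in 6 of the 6 and in 35.7% of all windows. The Nr3c2 window held 3 GC boxes, that of Scnn1g 2 and that of Scnn1b 1, which began 22 bases before the start. The member windows were between 58.7% (Fxyd4) and 71.0% (Atp1b1) G and C, against a median of 52.7% over all windows. These matches describe letters in the windows and do not show that a factor binds there.

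No member differed by 1.5-fold between the pools. The differences, Iah1-KO minus Iah1-WT on the log2 scale, lay between -0.12 (Scnn1b) and 0.25 (Nr3c2), with 6 members above 0 and 3 below and a median of 0.05. Over all 7671 genes at or above the floor the median was 0.01, and 52.4% lay above 0. At least 1.1-fold higher in the Iah1-KO pool were 2 of the 9 members, Nr3c2 and Scnn1g, where 17.5% of all genes were. At least 1.1-fold lower were 0 of the 9, where 14.4% of all genes were, and at least 1.5-fold different in either direction were 0 of the 9, where 0.43% of all genes were. The median size of a difference was 0.08 over the members and 0.09 over all genes. The members thus spread about as much as genes at large on these arrays.

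**Figure D1:**
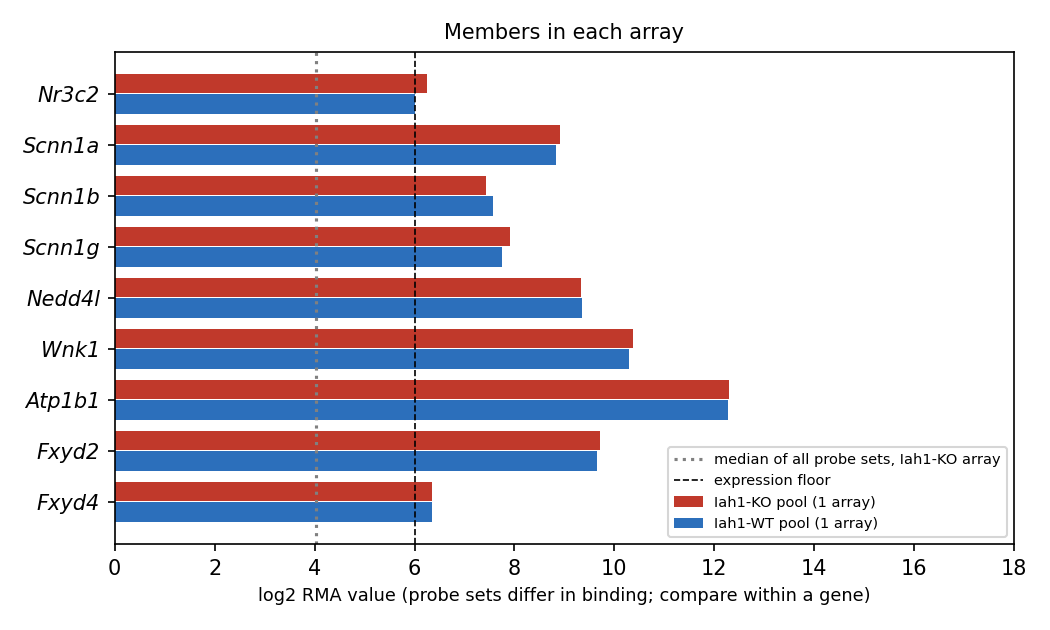
Log2 RMA value (x axis) of the brightest probe set of each of the 9 members in the Iah1-KO pool (red, upper bar) and the Iah1-WT pool (blue, lower bar), 1 array each. The 2 bars of every gene end close together, and all lie right of the median of all probe sets on the Iah1-KO array, 4.03 (dotted); Nr3c2 and Fxyd4 lie nearest the floor of log2 6 (dashed).

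Nr3c2 encodes the mineralocorticoid receptor itself. Its probe set 17502626 read 6.26 in the Iah1-KO pool and 6.01 in the Iah1-WT pool. The difference of 0.25 corresponds to an 18.9% higher signal and ranked 794 of 7671 genes by size, so that 10.4% of genes differed at least as much. As a yardstick for single genes, the robust SD of the differences of the 500 genes nearest in mean value was 0.18 around Nr3c2, and its difference was 1.37 times that. These 500 genes describe spread across genes on 2 arrays, not error between mice.

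The receptor has other probe sets, and they did not share the direction of the brightest one. Probe set 17510628, also with the single symbol Nr3c2, read 2.31 in the Iah1-KO pool and 2.45 in the Iah1-WT pool, a difference of -0.14. Both values lie below the array medians of 4.03 (Iah1-KO) and 4.05 (Iah1-WT), so this set is not shown to be above background. Probe set 17510635, which carries Nr3c2 together with Gm10649, read 3.94 in the Iah1-KO pool and 4.17 in the Iah1-WT pool, a difference of -0.23. The mean over the 2 single-symbol probe sets gave a difference of 0.06 for Nr3c2. The higher value of the receptor therefore rests on 1 probe set close to the floor.

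**Figure D2:**
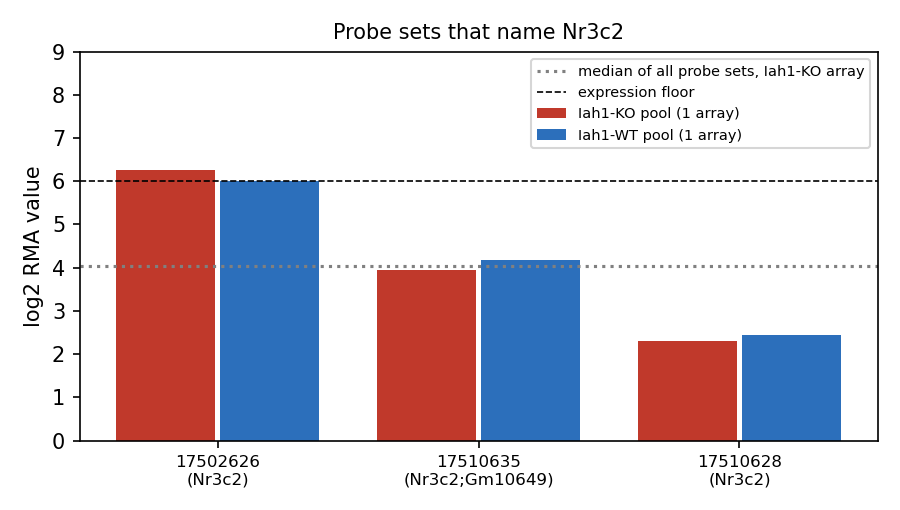
Log2 RMA value (y axis) of the 3 probe sets whose annotation includes Nr3c2, in the Iah1-KO pool (red, left bar) and the Iah1-WT pool (blue, right bar), with the floor of log2 6 (dashed) and the median of all probe sets on the Iah1-KO array (dotted). The brightest set is higher in the Iah1-KO pool, and both dim sets are lower in it.

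Of the 3 channel subunits, Scnn1g and Scnn1a read higher in the Iah1-KO pool and Scnn1b read lower. With 1 pool per genotype, these values cannot tell a split of the subunits from no difference. Scnn1g, the gamma subunit, read 7.92 in the Iah1-KO pool and 7.76 in the Iah1-WT pool, a difference of 0.16 or 12.0% more signal. That was 1.32 times the robust SD of 0.12 among genes of like value, and 24.4% of genes differed at least as much. Scnn1a, the alpha subunit, whose transcription aldosterone induces in the kidney, read 8.91 in the Iah1-KO pool and 8.82 in the Iah1-WT pool, a difference of 0.09 that was within its robust SD of 0.10. Scnn1b, the beta subunit, was the lowest of all members in difference, with 7.44 in the Iah1-KO pool and 7.56 in the Iah1-WT pool. Its difference of -0.12 (a change of -8.09%) was within the robust SD of 0.14.

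The genes of the beta and gamma subunits are adjacent protein-coding genes on chromosome 7 in the RefSeq annotation. The difference of Scnn1b minus that of Scnn1g was -0.29, the largest gap between 2 subunits, and that of Scnn1a minus that of Scnn1b was 0.21. For scale, among 114 genes whose 2 brightest probe sets both reached the floor, the differences of the 2 sets lay a median of 0.11 apart. Of the 9 members, 3 differed from 0 by more than that distance, Nr3c2, Scnn1g and Scnn1b. Of all genes at or above the floor, 37.4% differed at least as much as Scnn1b, the smallest of the 3. The distance lies between 2 differences, so it gives only a rough scale for a single one. Each subunit has 1 probe set, so none of these differences can be checked against a second one.

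Among the regulators, Nedd4l, the ligase that tags ENaC for removal, read 9.34 in the Iah1-KO pool and 9.36 in the Iah1-WT pool. Its difference of -0.02 was one of the smallest of the members, and 88.3% of genes differed at least as much. Wnk1, which in the distal tubule is expressed largely as a short form without kinase activity, read 10.37 in the Iah1-KO pool and 10.29 in the Iah1-WT pool, a difference of 0.08 against a robust SD of 0.10. A single probe set was read for Wnk1, so its short and long forms cannot be told apart here.

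The pump genes were the most even between the pools. Atp1b1, the beta subunit that carries the pump to the basolateral membrane, read 12.29 in the Iah1-KO pool and 12.27 in the Iah1-WT pool, a difference of 0.03. Its probe set ranked 24 of 22180 in the Iah1-KO array and 26 in the Iah1-WT array, a position in brightness and not an amount of RNA. Fxyd2, the gamma subunit of the renal pump, read 9.71 in the Iah1-KO pool and 9.66 in the Iah1-WT pool, a difference of 0.05. Fxyd4, a corticosteroid-induced pump modulator of the collecting duct, read 6.34 in the Iah1-KO pool and 6.36 in the Iah1-WT pool, a difference of -0.02. All 3 lay within the robust SD of genes of like value, which was 0.10 for Atp1b1 and Fxyd2 and 0.17 for Fxyd4. The 500 genes nearest to Atp1b1 include only 24 brighter ones, so its yardstick comes mainly from dimmer genes.

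**Figure D3:**
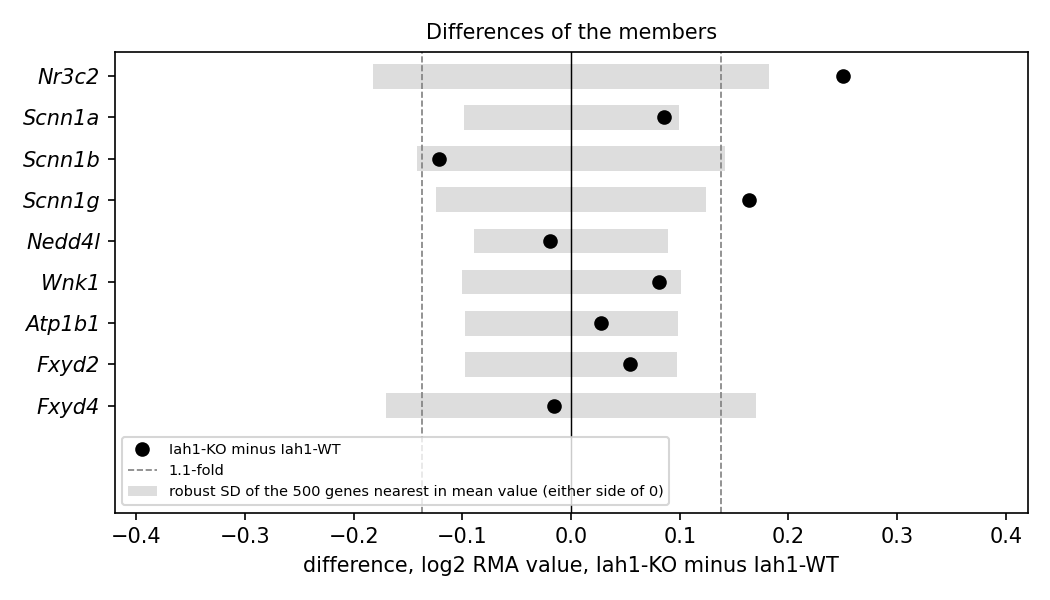
Difference of each member, Iah1-KO minus Iah1-WT, in log2 RMA value (points, x axis), over the robust SD of the 500 genes nearest in mean value drawn to either side of 0 (grey bars); dashed lines mark 1.1-fold. Nr3c2 (0.25) and Scnn1g (0.16) lie outside their grey bars and past 1.1-fold, and the other 7 members lie inside theirs. Of all genes at or above the floor, 10.4% differed at least as much as Nr3c2 and 24.4% at least as much as Scnn1g.

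**Figure D4:**
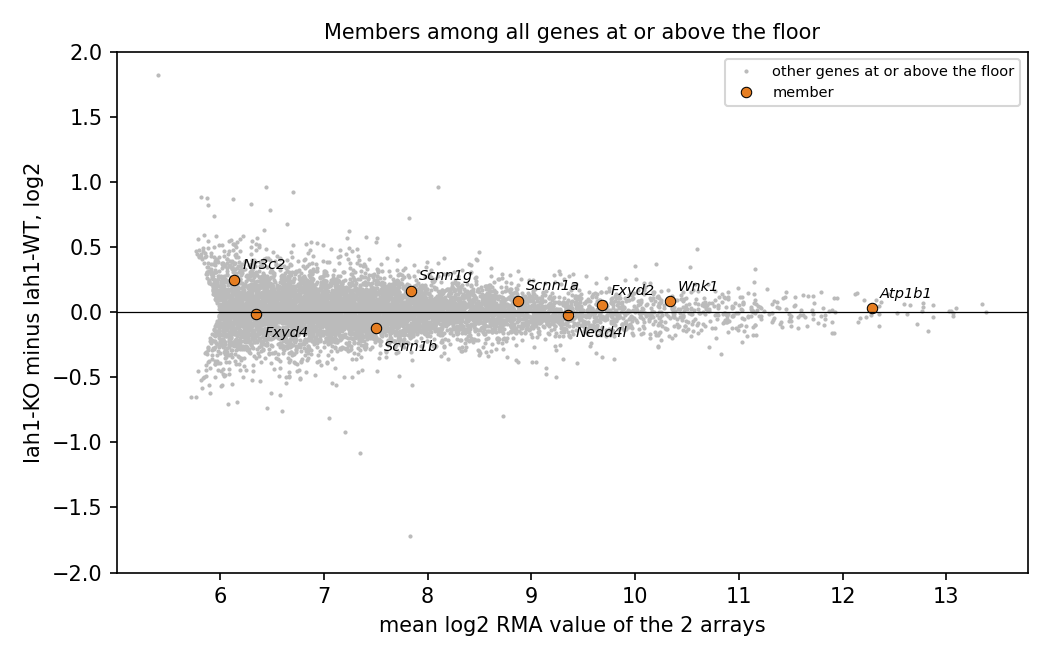
Difference, Iah1-KO minus Iah1-WT (y axis, log2), against the mean log2 RMA value of the 2 arrays (x axis) for genes at or above the floor (grey; Iah1, at -5.49, lies off the axis and is not drawn), with the 9 members in orange. The members lie within the cloud, whose middle 95% over all genes runs between -0.30 and 0.35.

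Other genes of the pathway were taken from lists drawn up for this tissue. Leaving out the members, 99 of 112 listed pathway genes were matched and 80 reached the floor. Of the 80, 15 (18.8%) exceeded 1.1-fold upward in the Iah1-KO pool and 12 (15.0%) downward, against 17.5% and 14.4% of all genes. Their median difference was -0.01.

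The genes that handle the hormone signal gave small values. Over 10 genes for the receptor complex and steroid metabolism at or above the floor, the median was -0.05. By 1.1-fold or more, 0 were lower in the Iah1-KO pool (14.4% of all genes were) and 1 was higher (17.5% of all genes were). That 1 gene was Fkbp5, a co-chaperone of steroid receptors and itself induced by them, at 7.08 in the Iah1-KO pool and 6.76 in the Iah1-WT pool. Hsd11b2, the enzyme that keeps glucocorticoids away from the receptor in principal cells, differed by -0.08, and Hsd11b1, which regenerates them, by 0.11. Nrip1, a corepressor of nuclear receptors, differed by -0.13.

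Genes known to be induced by aldosterone gave values in both directions with a median of 0.11. Of 14 at or above the floor besides Scnn1a, 11 lay above 0 and 3 below, against 52.4% of all genes above 0. By 1.1-fold or more, 5 (35.7%) were higher and 1 (7.14%) was lower in the Iah1-KO pool, against 17.5% and 14.4% of all genes. Of these 5, Zbtb16 and Tsc22d3, the glucocorticoid-induced leucine zipper, reached the floor in their Iah1-KO value only, so a lower value there would have left them out of the count. With the floor set on the mean of both arrays, 4 of 13 genes were higher and 1 was lower, with a median of 0.11. Shares of this size were also found for marker lists outside the pathway, such as 40.0% higher and 0% lower among endothelial markers. Zbtb16, a zinc finger repressor, was the furthest, at 6.31 in the Iah1-KO pool and 5.57 in the Iah1-WT pool. Fkbp5 differed by 0.31 and Pik3r3, a regulatory subunit of phosphoinositide 3-kinase, by 0.22. Sgk1, the kinase through which aldosterone acts on Nedd4l and whose upstream palindrome is printed above, read 6.92 in the Iah1-KO pool and 6.87 in the Iah1-WT pool, a difference of 0.05. Genes of this list, Zbtb16, Fkbp5 and Tsc22d3 among them, also respond to glucocorticoids, which these lists do not separate from aldosterone.

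The machinery around the channel and the WNK kinases gave values in both directions. For ubiquitination and trafficking of ENaC, 28 genes besides Nedd4l were at or above the floor, with 5 higher and 3 lower by 1.1-fold or more and a median of 0.03. Rictor, a component of the complex that activates Sgk1, differed by 0.23, Akt2 by 0.22, and Ndfip2, an adaptor of Nedd4-family ligases, by -0.23. Proteases and protease inhibitors, among them the enzymes that activate ENaC by cleavage, gave a median of -0.05 over 11 genes. Of these 11, 2 (18.2%) were higher and 3 (27.3%) lower by 1.1-fold or more, against 17.5% and 14.4% of all genes. Plau, the urokinase gene, differed by -0.27, St14, encoding matriptase, by -0.21 and Pcsk6, a proprotein convertase, by 0.16.

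In the WNK cascade, 3 of 13 genes besides Wnk1 (23.1%) were higher and 1 (7.69%) was lower by 1.1-fold or more. Over all genes these shares were 17.5% and 14.4%. The 13 genes had a median of -0.01 and a mean of 0.02. Oxsr1, a kinase activated by WNKs, differed by 0.23, and the ubiquitin ligase adaptors Klhl2 and Klhl3, which mark WNK kinases for degradation, by 0.23 and 0.16. The cotransporters at the end of the cascade were Slc12a3, the thiazide-sensitive one, at 11.41 in the Iah1-KO pool and 11.33 in the Iah1-WT pool, and Slc12a1, the loop diuretic target, at 10.87 in the Iah1-KO pool and 10.99 in the Iah1-WT pool. Of the pump list besides the members, Atp1b3 and the membrane anchor Ank3 reached the floor and differed by 0.02 and -0.01.

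**Figure D5:**
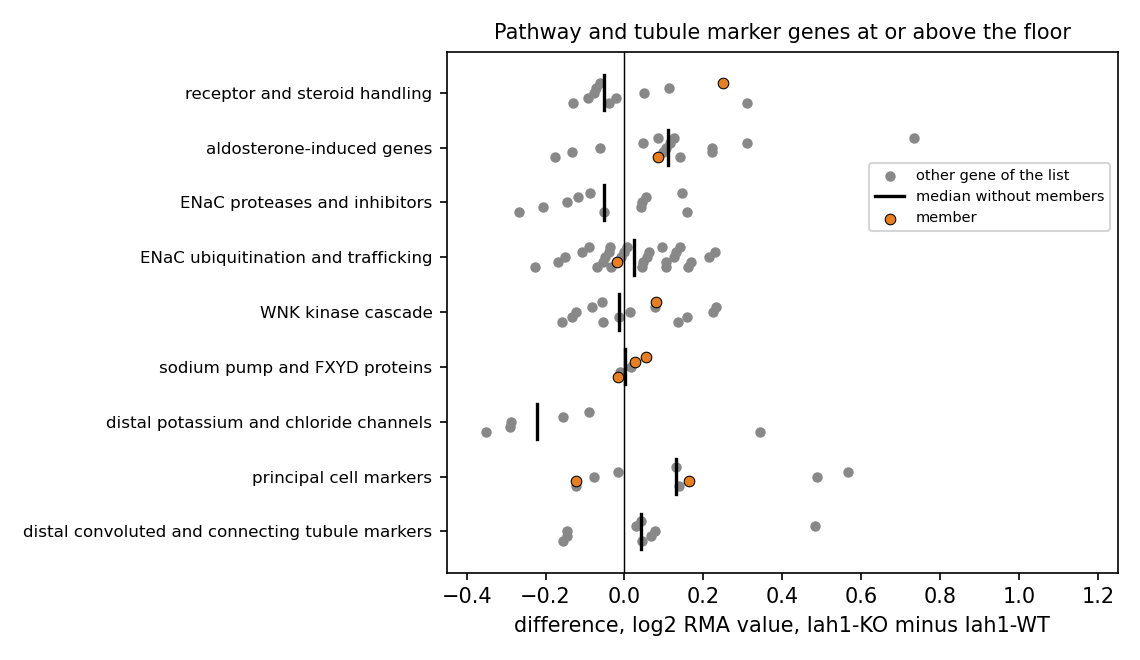
Difference, Iah1-KO minus Iah1-WT (x axis, log2 RMA value), of each gene at or above the floor in the pathway lists and in the principal cell and distal tubule marker lists (rows; vertical spread within a row is for legibility). Members are orange, other genes grey, and black bars are medians without the members, such as 0.11 for aldosterone-induced genes and 0.13 for principal cell markers.

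Markers of the cells that hold the channel were read beside these values. Principal cell markers other than the members gave a median of 0.13 over 7 genes at or above the floor, with 4 above 0 and 3 below. By 1.1-fold or more, 3 (42.9%) were higher and 0 lower in the Iah1-KO pool, against 17.5% and 14.4% of all genes. Endothelial markers (10 genes) and macrophage markers (5 genes) each had 40.0% higher and 0% lower by as much. The macrophage share includes Cx3cr1, at 6.16 in the Iah1-KO pool and 5.75 in the Iah1-WT pool. Cx3cr1 reached the floor in its Iah1-KO value only, so a lower value there would have left it out. Of the principal cell markers, the water channels Aqp4 (7.50 in the Iah1-KO pool and 6.94 in the Iah1-WT pool) and Aqp2 (6.68 in the Iah1-KO pool and 6.20 in the Iah1-WT pool) were the furthest. Summed on the linear scale, the 7 markers came to 1771 in the Iah1-KO pool and 1703 in the Iah1-WT pool. Gata3, Elf5 and Kcne1 were below the floor in both pools. Scnn1g thus lay on the same side as the aquaporins, and Scnn1b on the side of Hsd11b2 (-0.08) and Npnt (-0.12); the part of cell composition in these values was not tested. In kidney RNA, a different number of cells of a type and a different amount of RNA per cell cannot be told apart.

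Distal convoluted and connecting tubule markers gave a median of 0.04 over 9 genes, 1 higher and 3 lower by 1.1-fold or more, with Cnnm2 at 0.48, Sgms2 at -0.15 and Calb1 at -0.14. Of the 9, 6 lay above 0 and 3 below. Their sum on the linear scale was 13702 in the Iah1-KO pool and 14424 in the Iah1-WT pool. The brightest probe set in that sum was that of Klk1, at 12.75 in the Iah1-KO pool and 12.90 in the Iah1-WT pool. The lower sum therefore does not describe the markers as a group. Pvalb and Emx1 were below the floor. Medians were -0.04 for loop of Henle (9 genes, furthest Cldn10 at -0.24), -0.06 for intercalated cells (12 genes, furthest Atp6v1g3 at -0.81) and 0.02 for proximal tubule (15 genes, furthest Slc22a8 at 0.23). They were 0.06 for podocytes (2 genes, Podxl at 0.10), 0.11 for endothelium (10 genes, furthest Cdh5 at 0.24) and 0.11 for macrophages (5 genes, furthest Lyz2 at 0.63). The 4 macrophage markers below the floor went both ways, with C1qc at 0.30, C1qa at 0.04, Cd68 at -0.23 and Adgre1 at -0.73. One adipocyte marker, Fabp4, reached the floor, at -0.07. None of the 8 adrenal cortex markers, which include the aldosterone synthase gene, did.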

How the data were processed

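Kidney RNA was measured on 1 Affymetrix array per genotype, each with RNA of 3 mice pooled, per the series description and the labels. Each deposited value is the log2 RMA expression of a probe set. The submitters' processing notes name RMA and Affymetrix Expression Console, version 1.3.0, as what the authors used. RMA corrects background, gives both arrays the same distribution and summarises probes, so a shift of most transcripts is not visible and small signals are compressed. The sources used here name no genome build. No scanner signals or detection calls were used.

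Of 41345 probe sets, 23521 had 1 platform gene symbol, 1814 several and 16010 none; the brightest per gene was used, for 22180 genes. Differences are Iah1-KO minus Iah1-WT, without further normalization. Counts used the 7671 genes whose higher value was at least log2 6, and thresholds of 1.1-fold and 1.5-fold. The robust SD is the median absolute deviation times 1.4826. With 1 array per genotype no test was run; precision is limited by the number of arrays. The spread and loess steps were tested on simulated data. Python 3.11.15, numpy 2.4.6, pandas 2.3.3 and statsmodels 0.14.6 were used.

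The members and lists were chosen with earlier results of these data known. The genes named are the members, Iah1 and the 3 non-members furthest from 0 in each pathway list. Up to 3 furthest of each cell type marker list were also named, where Kcnj1, Sgms2 and Calb1 come from. Sgk1, Hsd11b2, Aqp2, Slc12a1 and Slc12a3 were named as well. Npnt, Tsc22d3, Klk1, Kcnma1, Kcnmb4 and markers below the floor were added after their values were seen. With 2 arrays each gene has a single difference, so no gene was named for a similar pattern. The protease list also held Cap2, an actin regulator entered in error, which lay below the floor and enters only the counts of genes listed and matched. Alternatives were the mean over a gene's probe sets, centring on the median, loess on mean value (span 0.3), floors of log2 5 and log2 7, and the mean of a list in place of its median. A floor on the mean of both arrays was added after seeing the data.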

Additional observations from a re-analysis of the deposited data

How the results depend on the processing

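No paired analysis was possible because each genotype has 1 array. Of the 2 members at least 1.1-fold higher in the Iah1-KO pool, 1 (Scnn1g) remained with the mean over a gene's probe sets, where Nr3c2 differed by 0.06 and was below the floor, and 1 (Scnn1g) remained with a floor of log2 7, which leaves out Nr3c2 and Fxyd4. Centring, loess, a floor of log2 5 and a floor on the mean of both arrays, the last chosen after seeing the data, kept 2. No alternative gave a member at least 1.1-fold lower or 1.5-fold different. Centring and loess left all 9 members on their side of 0 and within their robust SD of the reported difference, with Nr3c2 at 0.22 after loess. The mean over probe sets tests Nr3c2 alone, because the other 8 members have 1 single-symbol probe set each. The mean of a list in place of its median gave 0.02 for the WNK cascade (median -0.01) and -0.14 for distal potassium and chloride transport (median -0.22), which was -0.16 with a floor of log2 7. With 1 array per genotype, how far the pools themselves vary is unknown.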

Other observations

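Potassium and chloride transport in the distal nephron bears on the electrical gradient that drives sodium through ENaC, and its genes were examined as a further list. The list held channels and their subunits together with the anion exchanger Slc26a4 and the bicarbonate transporter Slc4a8. Among the 6 genes that reached the floor, Slc26a4 (-0.09) included, 1 was higher and 4 were lower in the Iah1-KO pool by 1.1-fold or more (17.5% and 14.4% of all genes were), with a median of -0.22 and a mean of -0.14. Their sum on the linear scale went the other way, at 2364 in the Iah1-KO pool and 2116 in the Iah1-WT pool, and the probe set of Kcnj16 was the brightest in it. Bsnd, the barttin subunit of the ClC-K chloride channels, read 6.67 in the Iah1-KO pool and 7.02 in the Iah1-WT pool. Kcnt1, a sodium-activated potassium channel, differed by -0.29 with its Iah1-KO value below the floor. Kcnj16 and Kcnj10 encode Kir5.1 and Kir4.1, which assemble into one basolateral potassium channel. Kcnj16 was the 1 higher gene, at 10.70 in the Iah1-KO pool and 10.36 in the Iah1-WT pool. Kcnj10, like Slc26a4 and Slc4a8 chosen for mention after its value was seen, read 7.01 in the Iah1-KO pool and 7.29 in the Iah1-WT pool. The partners therefore differed in opposite directions, by 0.34 and -0.29, each from 1 pool per genotype. Kcnj1, the apical potassium channel ROMK, differed by -0.16. The 3 genes of the list below the floor, Slc4a8 (0.40), Kcnma1 (0.30) and Kcnmb4 (0.02), lay above 0 and are not in these counts. These values have no replicate check and were not tested.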
